A study of Mus musculus with 28 samples.

Results

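*Meg3*, *Rian*, *Mirg*, *Miat*, *Snhg11*, *Snhg14*, *Peg13* and *Pantr1* are 8 genes of long non-coding RNAs known from the nervous system, some of them expressed from only the maternal or the paternal copy, which is called imprinting. They were chosen by their symbols in GENCODE release M21. Of the 49477 genes listed in the count tables of both batches of mice, 7 were these genes, and *Rian* was listed in the first batch's table only. All of these 7 passed the filter of a mean of at least 10 counts, which left 16266 genes.

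The amygdala of 28 adult female C57BL/6J mice (C57BL6/J in the labels), bought at 7 weeks of age, was sampled as micropunches that held the basolateral and the central nuclei. Over a drinking period of 28 days, the Chronic Drinking group had a free choice of water and 20% ethanol on every other day, the Acute Drinking group had this choice on the last day alone after drinking only water, and the Water Drinking group drank only water. Tissue was taken on day 29, and RNA of each mouse was sequenced as paired-end reads after mRNA enrichment and rRNA removal. By group, Water, Acute and Chronic, there were 4, 4 and 3 mice in one batch, called the first, and 6, 5 and 6 in the other. Mice are named here by their group and number, with the numbers 33 to 43 in the first batch.

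In the genome these RNAs fall into a few well-studied neighbourhoods. *Meg3*, *Rian* and *Mirg* are transcribed from the maternal copy of the *Dlk1*-*Dio3* domain, in which the protein-coding genes *Dlk1*, *Rtl1* and *Dio3* are expressed mainly from the paternal copy, and *Rian* and *Mirg* are the hosts of small nucleolar RNAs and of microRNAs. *Snhg14* is a long paternal transcript that hosts small nucleolar RNAs and runs antisense across *Ube3a*, whose paternal copy is silent in neurons, and *Peg13* is a paternal transcript within an intron of *Trappc9*. *Miat* is a nuclear RNA of neurons reported to bind splicing factors, *Snhg11* is a small nucleolar RNA host gene of neurons, and *Pantr1* lies beside *Pou3f3*, a transcription factor gene of the developing cortex.

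On GRCm38, the annotation placed *Meg3* on chromosome 12 from 109541001 to 109571726, *Rian* from 109603940 to 109661716 and *Mirg* from 109729764 to 109749460, all on the plus strand. *Snhg11* was on chromosome 2 from 158375638 to 158386145 on the plus strand. *Miat* was on chromosome 5 from 112213228 to 112229395, *Snhg14* on chromosome 7 from 59307924 to 59975759, *Peg13* on chromosome 15 from 72805600 to 72810324 and *Pantr1* on chromosome 1 from 42590782 to 42694842, all on the minus strand. The annotation types *Snhg11* as protein-coding. Exons of *Snhg14* overlap those of 4 other genes, among them *Ube3a* on the opposite strand, and whether the quantification used strand was not given in the sources used here, so that reads of overlapping genes cannot be told apart. *Miat* exons overlapped those of 5 other genes, *Meg3* exons those of 4 and *Mirg* exons those of 9, all microRNA genes.

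The starts of *Meg3*, *Snhg11* and *Miat*, which are among the genes compared below for how their levels moved together, are printed. The sequences are from RefSeq (GRCm38.p6), run 5′ to 3′ on the strand of the gene, and hold 250 bases before the start and 50 after it. Capitals mark matches, on either strand, to the cyclic AMP response element, GC box, CCAAT box or TATA box.
Meg3, chr12:109540746-109541045, plus strand: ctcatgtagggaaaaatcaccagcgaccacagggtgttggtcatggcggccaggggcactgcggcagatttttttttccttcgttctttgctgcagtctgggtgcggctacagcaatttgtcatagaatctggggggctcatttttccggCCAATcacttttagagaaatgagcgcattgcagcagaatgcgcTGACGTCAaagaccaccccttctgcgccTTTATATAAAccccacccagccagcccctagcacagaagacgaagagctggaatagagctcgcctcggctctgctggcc
Snhg11, chr2:158375463-158375762, plus strand: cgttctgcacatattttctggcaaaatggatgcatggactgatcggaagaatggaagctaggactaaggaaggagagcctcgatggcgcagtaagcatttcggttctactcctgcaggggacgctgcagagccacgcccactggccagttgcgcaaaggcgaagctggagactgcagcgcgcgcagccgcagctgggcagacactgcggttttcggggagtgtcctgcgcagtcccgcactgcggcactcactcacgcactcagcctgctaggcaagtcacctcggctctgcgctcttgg
Miat, chr5:112228899-112229198, minus strand: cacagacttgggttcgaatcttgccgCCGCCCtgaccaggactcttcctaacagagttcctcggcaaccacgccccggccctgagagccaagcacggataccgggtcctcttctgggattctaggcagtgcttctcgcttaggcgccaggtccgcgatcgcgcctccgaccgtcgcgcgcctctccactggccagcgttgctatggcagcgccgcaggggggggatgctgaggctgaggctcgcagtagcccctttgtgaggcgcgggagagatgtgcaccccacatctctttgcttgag
The *Meg3* sequence held 1 cyclic AMP response element at positions -57 to -50 (0 is the first transcribed base), 1 CCAAT box and 2 overlapping matches to the TATA box. RefSeq lists another *Meg3* start, with the window chr12:109545148-109545447, which held none of the 4 motifs. The cyclic AMP response element, spelled TGACGTCA, was in 1.79% of all 32851 promoters of that length in the table. The CCAAT box was in 37.4% of them. The TATA box, spelled TATAAA, was in 13.6%. The GC box, spelled GGGCGG, was in 35.7%. The *Miat* sequence held 1 GC box, on the opposite strand, and the *Snhg11* sequence held none of the 4 motifs. Their GC content was 64.3% and 60% respectively, against 53.7% for *Meg3* and a median of 52.7% over all promoters. *Peg13* and *Pantr1* had no entry, and the entries of *Rian*, *Mirg* and *Snhg14* are not printed.

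*Mirg* is the host of 14 microRNA hairpins in the RefSeq table, with 26 mature microRNAs inside its span on the plus strand. The following 5 are printed to show what the transcript carries, with the seed (bases 2 to 8) in capitals.
mmu-miR-134-5p: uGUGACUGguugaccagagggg
mmu-miR-485-3p: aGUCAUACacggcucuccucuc
mmu-miR-154-3p: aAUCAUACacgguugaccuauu
mmu-miR-453: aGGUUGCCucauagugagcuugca
mmu-miR-496a-5p: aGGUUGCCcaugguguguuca
Only 1 seed was shared among the 26, GGUUGCC, by mmu-miR-453 and mmu-miR-496a-5p. The libraries were not made for small RNAs. In the stretch of chromosome 12 from *Meg3* to *Mirg*, none of the 66 annotated microRNA genes or of the 23 small nucleolar RNA genes reached a mean of 10 counts in either table, with highest means of 5.27 and 4.18 counts.

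Counts summed to between 20393352 and 22569562 per mouse in the first batch and to between 20004380 and 20890964 in the second, and levels are given as CPM, the count scaled to a fixed library size after TMM scaling. Together the 7 genes listed in both tables took 0.412% to 0.613% of the counts of a mouse (median 0.513%). *Meg3* ranked 13th by mean count among the 16266 genes and *Snhg11* 36th, followed by *Peg13* at 468, *Miat* at 767, *Snhg14* at 2028, *Mirg* at 7229 and *Pantr1* at 9741. To compare genes, levels of the Water mice were divided by the kilobases of all annotated exons. *Snhg11* was then at 177 ± 13.6 and *Meg3* at 159 ± 16.5 CPM per kilobase (SD, n = 10), and their ranges over the mice overlapped. *Peg13* followed at 65.1 ± 2.28, *Rian* at 40.2 ± 2.64 (n = 4), *Miat* at 25.3 ± 2.49, *Snhg14* at 4.35 ± 0.76, *Mirg* at 2.92 ± 0.30 and *Pantr1* at 2.43 ± 0.37 CPM per kilobase. The ranges of *Mirg* and *Pantr1* also overlapped. Per kilobase of the longest transcript, *Rian* (90.5 ± 5.95) stood above *Peg13* (65.1 ± 2.28) and the rest of the order was the same.

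The first question was whether a single access to ethanol, or access on every other day of a drinking period of 28 days, changed these RNAs in the amygdala. None of the 7 genes was called in any of the 3 comparisons of drinking groups at an adjusted p under 0.05 by edgeR's quasi-likelihood test in a model that held batch, and every interval below is a 95% interval from that fit. Of all genes, 0% were called for Acute against Water, 0.0184% for Chronic against Water and 0% for Chronic against Acute. DESeq2, limma-voom and ComBat-seq followed by DESeq2 called none of the 7 either. At an unadjusted p under 0.05, 1 of the 7 passed in each comparison, *Miat* for Acute against Water, *Mirg* for Chronic against Water and *Miat* for Chronic against Acute, beside 9.52%, 10.5% and 4.44% of all genes. The median log2 fold change of the 7 genes was -0.027, 0.037 and 0.072 in these comparisons, and that of all genes 0.0011, 0.0022 and -0.00089. For each of the 8 genes and each comparison, the values of the groups overlapped after batch means were removed. The exact permutation p-values below are not adjusted, and for the genes they were computed for each of the 8 genes in each of the 3 comparisons.

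**Figure D1:**
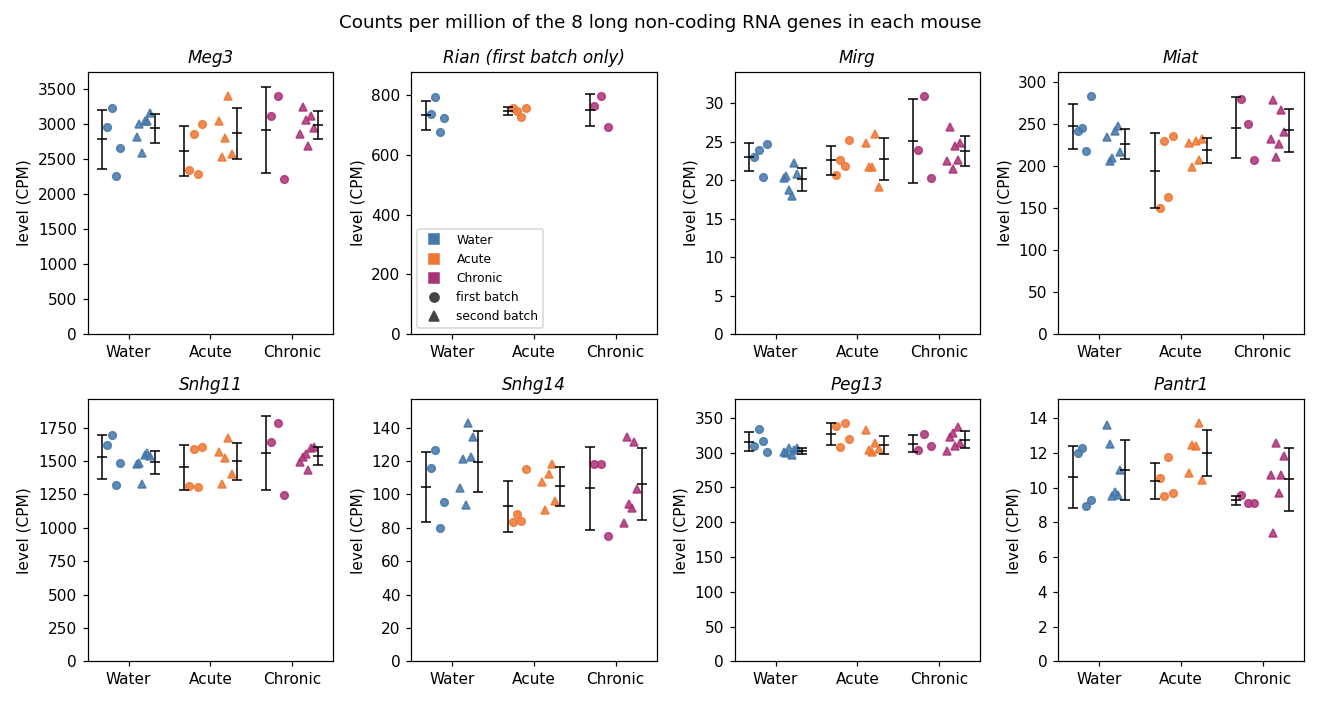
Level (CPM, linear axis from 0) of the 8 genes in each mouse, by drinking group, with circles for the first batch and triangles for the second. Bars give the mean and SD of a group within a batch. The groups overlap in every panel, and 2 Acute mice of the first batch are the lowest for Miat (149.8 and 164 CPM).

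*Mirg*, the microRNA host, had its lowest levels among the Water mice and its highest in a Chronic mouse. It spanned 17.9 to 24.7 CPM among Water mice (median 20.7), 19.2 to 26.1 CPM among Acute mice (median 21.8) and 20.3 to 31.0 CPM among Chronic mice (median 23.9). With batch means removed, 8 of 9 Chronic mice were above the Water mean. The fitted log2 fold change was 0.19 ± 0.069 (SE, interval 0.052 to 0.34) for Chronic against Water, with an adjusted p of 0.293 by edgeR's quasi-likelihood test and a 2-sided exact permutation p within batches of 0.0184. With each mouse left out in turn, the exact permutation p ran from 0.0020 without Chronic 39 to 0.0473 without Chronic 38. Within the first batch mean log2 CPM differed by 0.10, and within the second by 0.24. The first batch's value depended on single mice, at -0.060 without Chronic 38, 0.24 without Chronic 39 and 0.048 without Water 42. For Acute against Water the fitted log2 fold change was 0.088 (interval -0.054 to 0.23), and the batches differed in sign, with a difference of mean log2 CPM of -0.028 in the first and 0.17 in the second. Chronic 38 had the highest level of all mice, and the Chronic mice of the second batch, at 21.5 to 27.0 CPM, overlapped the Water mice of the same batch, at 17.9 to 22.3 CPM.

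*Miat* was lowest in 2 of the first batch's Acute mice. It spanned 206 to 284 CPM among Water mice (median 238), 149.8 to 235 CPM among Acute mice (median 227) and 207 to 280 CPM among Chronic mice (median 241). Acute 33, at 149.8 CPM, and Acute 35, at 164 CPM, lay below all other mice, and the other Acute mice, from 199 to 235 CPM, were between the lowest and the highest Water mouse or just below the lowest. Acute 33 and Acute 35 were also among the 4 mice of the first batch with the lowest *Meg3* and the highest total counts, described below. The part of this in the *Miat* values was not tested. The log2 fold change was -0.17 ± 0.079 (SE, interval -0.34 to -0.010) for Acute against Water and 0.23 ± 0.081 (interval 0.060 to 0.39) for Chronic against Acute, with edgeR adjusted p-values of 0.502 and 0.998. The exact permutation p-values were 0.0664 and 0.0278, with 8 of 9 Acute mice below the Water mean and 9 of 9 Chronic mice above the Acute mean. With each mouse left out in turn, the exact permutation p ran from 0.0374 to 0.136 for the former and from 0.0139 to 0.0574 for the latter. Within batches, mean log2 CPM differed between Acute and Water by -0.37 in the first and by -0.046 in the second. The difference between these effects was 0.30 ± 0.16 (SE), with an edgeR adjusted p of 0.999. The second batch's value depended on single mice, moving toward no change without Acute 2 and away from it without Water 2.

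*Pantr1*, the least abundant of the genes, spanned 8.92 to 13.6 CPM among Water mice (median 10.4), 9.49 to 13.7 CPM among Acute mice (median 10.9) and 7.38 to 12.5 CPM among Chronic mice (median 9.68). With batch means removed, 7 of 9 Chronic mice were below the Acute mean, although the groups overlapped. The log2 fold change was -0.18 ± 0.091 (SE, interval -0.37 to 0.010) for Chronic against Acute, with an edgeR adjusted p of 0.998 and an exact permutation p of 0.0480. With each mouse left out in turn, the exact permutation p ran from 0.0155 without Chronic 3 to 0.108 without Acute 4, and it was 0.0778 without Chronic 2, the lowest mouse. Mean log2 CPM differed by -0.16 within the first batch, which was -0.097 without Acute 35, and by -0.21 within the second, which was -0.11 without Chronic 2. The striatal markers, a list of 8 genes that were all measured, moved with this difference. Their mean log2 CPM was lower in Chronic than in Acute mice by a difference of -0.40 (exact permutation p = 0.0403), and their summed level ranged from 549 to 1299 CPM in Acute mice and from 500.1 to 1098 CPM in Chronic mice, with no marker at 0 in any mouse. The part of these markers in the *Pantr1* values was not tested.

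*Snhg14*, the transcript that runs antisense to *Ube3a*, spanned 79.9 to 143 CPM among Water mice (median 118), 83.8 to 118 CPM among Acute mice (median 95.9) and 75.0 to 134 CPM among Chronic mice (median 103). Lower values were mixed with higher ones in every group. The log2 fold change was -0.18 (interval -0.40 to 0.033) for Acute against Water and -0.11 (interval -0.33 to 0.10) for Chronic against Water. Of the Acute mice, 7 of 9 were below the Water mean (exact permutation p = 0.1002). *Peg13* varied least, spanning 297 to 334 CPM among Water mice (median 306), 302 to 343 CPM among Acute mice (median 314) and 303 to 336 CPM among Chronic mice (median 314). Its log2 fold change was 0.047 (interval -0.010 to 0.10) for Acute against Water and 0.044 (interval -0.013 to 0.10) for Chronic against Water, with exact permutation p-values of 0.0682 and 0.0810. In both groups 6 of 9 mice were above the Water mean. For Acute against Water mean log2 CPM differed by 0.051 and 0.041 within the batches, while for Chronic against Water it differed by -0.011 within the first and by 0.073 within the second. The 2 comparisons with Water share the Water mice.

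For the most abundant of the genes, *Meg3* and *Snhg11*, every interval of the fold change included no change. *Meg3* spanned 2261 to 3232 CPM among Water mice (median 2977), 2286 to 3390 CPM among Acute mice (median 2798) and 2218 to 3401 CPM among Chronic mice (median 3052), so that each group covered nearly the same range. Its log2 fold change was -0.058 (interval -0.21 to 0.094) for Acute against Water, 0.037 (interval -0.11 to 0.19) for Chronic against Water and 0.095 (interval -0.061 to 0.25) for Chronic against Acute. *Snhg11* spanned 1322 to 1694 CPM among Water mice (median 1513), 1305 to 1673 CPM among Acute mice (median 1522) and 1249 to 1786 CPM among Chronic mice (median 1556). Its log2 fold change was -0.027 (interval -0.15 to 0.093) for Acute against Water and 0.037 (interval -0.083 to 0.16) for Chronic against Water. The groups covered nearly the same range. *Rian*, the host of small nucleolar RNAs between *Meg3* and *Mirg*, was measured in the 11 mice of the first batch. The Water mice 40 to 43 stood at 737, 793, 676 and 722 CPM, the Acute mice 33 to 36 at 755, 747, 727 and 755 CPM, and the Chronic mice 37 to 39 at 761, 797 and 693 CPM. The Acute mice lay within the range of the Water mice. The log2 fold changes of *Rian*, fitted by edgeR to the first table alone with 16557 genes, were 0.027 ± 0.057 (SE) for Acute against Water and 0.036 ± 0.061 for Chronic against Water, with adjusted p-values of 0.925 and 0.9996. Of the genes in that table, 0% were called in either comparison.

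**Figure D2:**
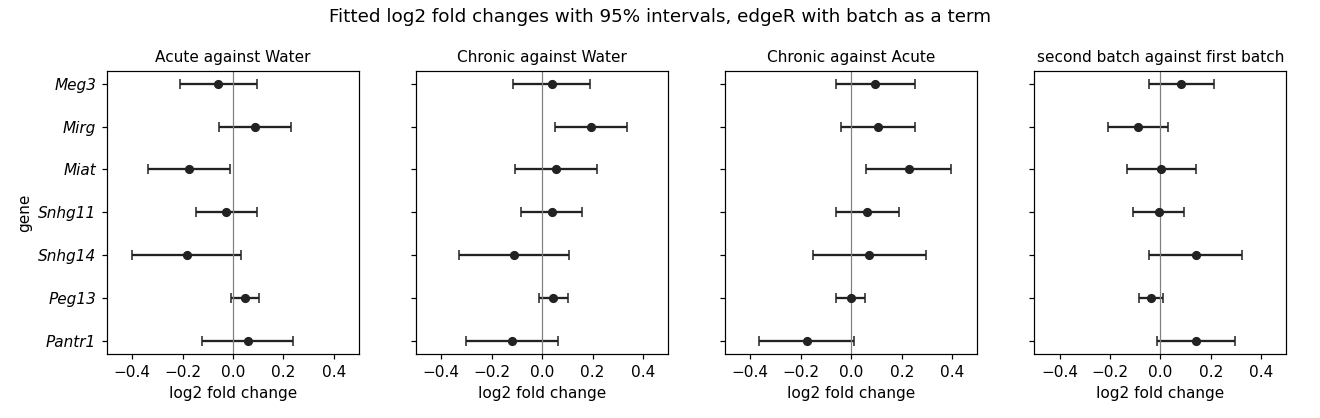
Log2 fold change with its 95% interval for the 7 genes listed in both tables in the 3 comparisons of drinking groups and for the second against the first batch, from edgeR fits with batch and group as terms. No gene passes an adjusted p of 0.05 in any panel, and the intervals that leave 0 out are those of Mirg for Chronic against Water and of Miat for Acute against Water and Chronic against Acute.

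The batches were separate cohorts of mice whose tables listed different sets of genes, so that differences between them cannot be told apart from differences of handling or annotation. Of all genes, 46.2% were called between the batches, and of the 7 genes listed in both tables none was called. Their log2 fold changes for the second against the first batch ran from -0.090 for *Mirg* to 0.14 for *Snhg14* and *Pantr1*, beside a median absolute value of 0.13 over all genes. *Snhg14* was at 100.1 ± 18.8 CPM in the first batch (SD, n = 11) and at 111 ± 18.2 in the second (n = 17), with an interval of the fold change from -0.044 to 0.32. *Pantr1* was at 10.2 ± 1.28 and 11.1 ± 1.67 CPM, with an interval from -0.014 to 0.29. *Meg3* was at 2755 ± 426 and 2931 ± 245 CPM, and *Miat* at 228 ± 42.0 and 230 ± 21.5 CPM. The spread was wider in the first batch for most of the genes, with a coefficient of variation of 15.5% against 8.36% for *Meg3*, 18.4% against 9.35% for *Miat* and 12.2% against 6.18% for *Snhg11*. For *Pantr1* it was narrower in the first batch, at 12.6% against 15.0%, and for *Peg13* it was 4.48% and 3.83%. The effects of drinking were also compared between batches in edgeR's test of the batch by group terms, which called 0 of the 7 genes and 0% of all genes.

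The next question was how far the 8 genes moved together from mouse to mouse. Group means were removed within each batch, and r was computed over the 11 mice of the first batch and the 17 of the second, with p-values from 100000 permutations. The permutations shuffled the mice of a batch across groups, with no allowance for the removed group means. The permutation p-values of r and rho can therefore be too small, which matters near the threshold. Of 49 relations between the genes, 16 had an adjusted p of r under 0.05, 11 of them in the first batch. The median r was 0.57 and 0.31 in these batches. The share that passes among pairs of other genes was not computed, so that these counts do not set the 8 genes apart.

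In the *Dlk1*-*Dio3* domain, the maternal transcripts moved together. *Meg3* and *Rian* had an r of 0.88 in the first batch (permutation p = 5e-05, rho = 0.88 with permutation p = 0.00076), which was 0.72 without the 2 mice farthest from the median. *Meg3* and *Mirg* had an r of 0.82 in the first batch (permutation p = 0.00138, rho = 0.84 with p = 0.00227, r = 0.64 without 2 mice) and of 0.59 in the second (permutation p = 0.0120, rho = 0.59 with p = 0.0152, r = 0.45 without 2 mice). *Rian* and *Mirg* had an r of 0.74 (permutation p = 0.0107, rho = 0.60 with p = 0.0565, r = 0.47 without 2 mice). Adjusted over these 4 planned relations, the p of r was 0.0002, 0.00276, 0.0120 and 0.0120 in the order given, and that of rho 0.00304, 0.00454, 0.0202 and 0.0565.

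**Figure D3:**
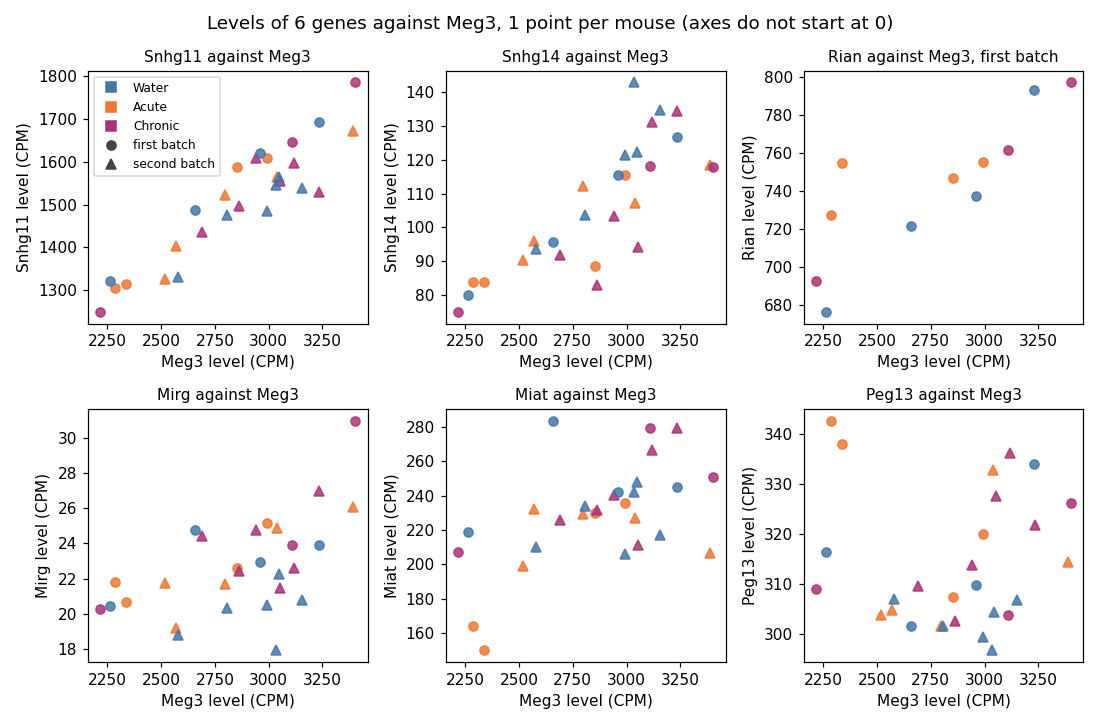
Level in CPM of Snhg11, Snhg14, Rian, Mirg, Miat and Peg13 against that of Meg3, 1 point per mouse, coloured by drinking group, with circles for the first batch and triangles for the second, on axes that do not start at 0. Snhg11 follows Meg3 most closely (r of 0.995 and 0.90 within batches after group means are removed), and 4 mice of the first batch lie apart at 2218 to 2335 CPM of Meg3.

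A closer relation joined genes of different chromosomes. *Meg3* and *Snhg11* had an r of 0.995 in the first batch (permutation p = 1e-05, the smallest that the resamples allow, rho = 0.99, r = 0.99 without 2 mice) and of 0.90 in the second (permutation p = 1e-05, rho = 0.79, r = 0.84 without 2 mice), with an adjusted p of 0.000245 in both. *Meg3* and *Snhg14* had an r of 0.94 (adjusted permutation p = 0.000327, rho = 0.89, r = 0.87 without 2 mice) and of 0.76 (adjusted permutation p = 0.00233, rho = 0.83, r = 0.75 without 2 mice). *Peg13* and *Pantr1* did not pass in their relations with *Meg3*, with r of -0.026 and 0.24 in the first batch and of 0.48 and 0.052 in the second.

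In the first batch, 4 mice lay below the rest for *Meg3*: Acute 33, Acute 35, Chronic 39 and Water 42, at 2218 to 2335 CPM, against 2657 to 3401 CPM in the other 7. Their total counts, 22471637 to 22569562, were above those of the other 7 mice, 20393352 to 22374450. Among those 7 mice, a choice made after the values were seen, r with *Meg3* was 0.98 for *Snhg11*, 0.94 for *Rian* and 0.79 for *Snhg14*, with no test. It was 0.33 for *Mirg* and -0.83 for *Miat*, whose r with *Meg3* over all 11 mice was 0.71 (adjusted permutation p = 0.0520, rho = 0.67, r = 0.62 without 2 mice). In the second batch the r of *Miat* with *Meg3* was 0.26 (adjusted permutation p = 0.433, rho = 0.40, r = 0.37 without 2 mice). Among the 7 first-batch mice, r with *Meg3* was 0.95 for *Peg13* and 0.76 for *Pantr1*, unlike the values over all 11 mice. The 7 mice cover a narrower range of *Meg3*. With group means removed again among them, few of their values were free, so that a large r of either sign is easily reached.

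**Figure D4:**
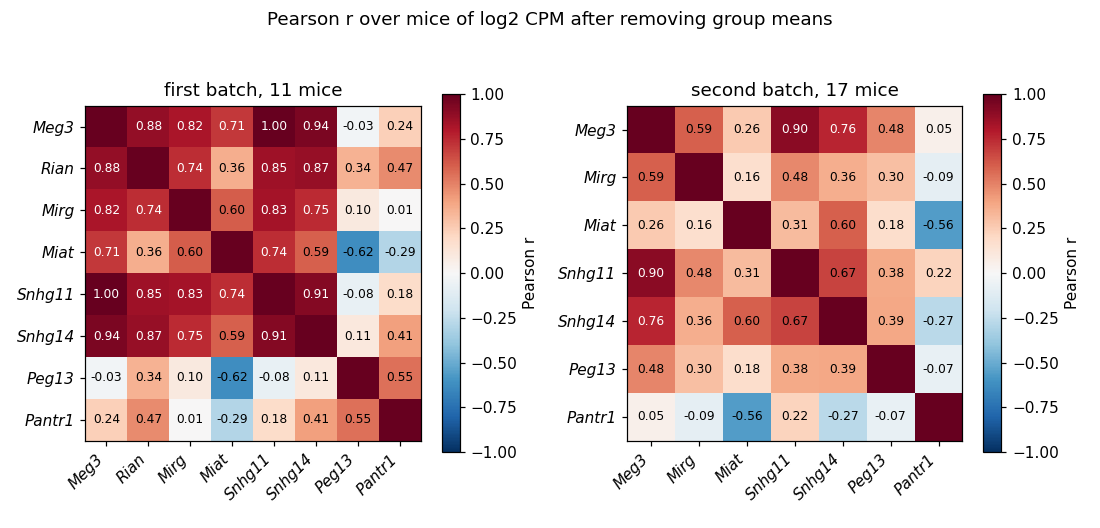
Pearson r between the genes over mice, with group means removed, in the first batch (11 mice, 8 genes) and in the second (17 mice, 7 genes). The block of high values joins Meg3, Snhg11 and Snhg14 in both batches, while Miat and Pantr1 have negative r in both, of -0.29 and -0.56. Neither r of Miat with Pantr1 passes (adjusted permutation p = 0.508 and 0.0520), and without 2 mice they are -0.25 and -0.28.

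The genes whose levels most resembled each member's were found over all 28 mice with batch means removed, with a mean count of at least 100 required, as a description. *3110039I08Rik*, an unnamed transcript, was closest to both *Meg3* (r = 0.87) and *Snhg11* (r = 0.89), and *Zcchc7* was among the closest 3 of both (r = 0.86 and 0.85). For *Snhg14* the closest were *Ubn2* (r = 0.93), *Dicer1* (r = 0.92), the nuclease that matures microRNAs, and *Macf1* (r = 0.92), a cytoskeletal linker. *Miat* was closest to *Ptpn23* (r = 0.81), *Sfswap* (r = 0.80), a splicing regulator, and *Leng8* (r = 0.79). *Mirg* was closest to *Pdlim7* (r = 0.79), *Peg13* to *Sv2a* (r = 0.80), a synaptic vesicle protein, and *Pantr1* to *Dhrs7* (r = 0.77) and *Ptpn5* (r = 0.75), a phosphatase abundant in striatum. Over the 11 mice of the first batch, *Rian* was closest to *Camta1*, *Dzank1* and *Dnm3*, with r of 0.93 each.

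The levels were also set against depth, the mitochondrial share and marker scores, the latter being the mean log2 CPM of a list of markers. Of 195 such relations, 8 had an adjusted p of r under 0.05 and in 2 of them rho passed as well. *Pantr1* moved with the striatal score in both batches, with r of 0.85 in the first (adjusted permutation p = 0.0361, rho = 0.78, r = 0.77 without 2 mice) and of 0.69 in the second (adjusted permutation p = 0.0483, rho = 0.69, r = 0.70 without 2 mice). The adjusted permutation p of rho was 0.117 and 0.0819. *Miat* had an r of -0.71 with the central amygdala score in each batch, with adjusted permutation p-values of 0.156 and 0.0474 (rho = -0.62 and -0.64, r = -0.63 and -0.59 without 2 mice). Between Acute and Water mice that score differed by 0.24, with Acute above (exact permutation p = 0.0286), with all 6 markers measured, none at 0, and a summed level of 381 to 473 CPM in Acute mice and 339.8 to 435 CPM in Water mice. Its part in the *Miat* values was not tested.

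*Snhg14* and *Meg3* moved with the score of oligodendrocyte precursor markers in the second batch, with r of 0.87 (adjusted permutation p = 0.0039, rho = 0.85, r = 0.86 without 2 mice) and 0.73 (adjusted permutation p = 0.0361, rho = 0.78, r = 0.70 without 2 mice), against 0.35 and 0.30 in the first. *Snhg14* was lower where the total count was higher in the first batch, with an r of -0.85 (adjusted permutation p = 0.0361, rho = -0.85, r = -0.79 without 2 mice). In the second batch its r was -0.36, with a rho of -0.61 (adjusted permutation p = 0.155) and an r of -0.70 without 2 mice. The same sign was found in the first batch for *Meg3* (r = -0.76), *Rian* (r = -0.74) and *Snhg11* (r = -0.70), with adjusted permutation p-values of 0.0787, 0.108 and 0.147. In the second batch *Snhg11* had a rho of -0.76 with the total count (adjusted permutation p = 0.0390) and an r of -0.53 (adjusted permutation p = 0.202, r = -0.80 without 2 mice), and *Meg3* a rho of -0.49 (adjusted permutation p = 0.230) and an r of -0.30, which was -0.72 without 2 mice. Differences in r between the batches were not tested. *Peg13* had an r of 0.87 with the central amygdala score in the first batch (adjusted permutation p = 0.0361, rho = 0.86, r = 0.87 without 2 mice) and of -0.028 in the second. The last of the 8 was *Meg3* with the pallial excitatory score in the second batch, with an r of -0.72 (adjusted permutation p = 0.0361, rho = -0.57), which was -0.44 without 2 mice. In these bulk samples, fewer cells of a type and less RNA per cell cannot be told apart. The total count was itself higher in Chronic than in Water mice, by 0.049 on the log2 scale (exact permutation p = 0.00121), and its part in the levels was not tested.

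**Figure D5:**
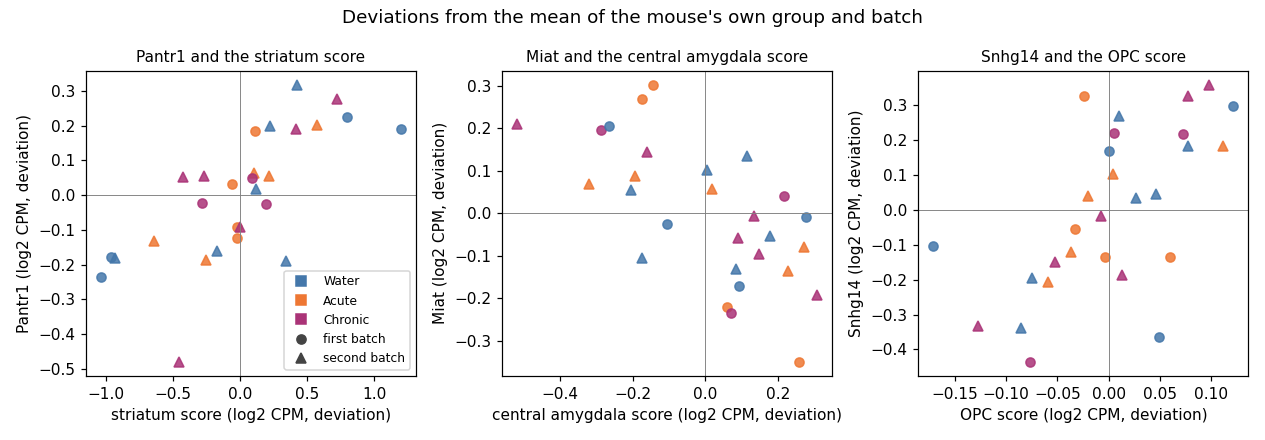
Levels of Pantr1, Miat and Snhg14 against the striatum, central amygdala and oligodendrocyte precursor (OPC) scores, as deviations in log2 CPM from the mean of the mouse's own group and batch, 1 point per mouse. Pantr1 rises with the striatum score in both batches (r of 0.85 and 0.69), Miat falls with the central amygdala score (r of -0.71 in each) and Snhg14 has an r with the OPC score of 0.87 in the second batch and 0.35 in the first, a difference that was not tested.

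The imprinted domains around these genes were read from lists of their genes, and none of these genes was called in a comparison of drinking groups. In the *Dlk1*-*Dio3* domain, 7 of 11 genes tested were higher and 4 lower for Acute against Water (median log2 fold change 0.046), and 10 were higher and 1 lower for Chronic against Water (median 0.055). Over all genes the medians were 0.0011 and 0.0022. The genes counted are not independent, as *Meg3* and *Mirg* among them moved together. *Rtl1*, a retrotransposon-derived gene expressed from the paternal copy, spanned 5.53 to 10.04 CPM among Water mice (median 8.50) and 7.45 to 11.2 CPM among Chronic mice (median 9.38), with overlap. Its log2 fold change was 0.25 ± 0.089 (SE) for Chronic and 0.20 ± 0.090 for Acute against Water, with edgeR adjusted p-values of 0.295 and 0.501. *Dlk1*, which encodes a Notch-related ligand, was at 0.12 ± 0.14 and 0.22 ± 0.14, with adjusted p-values of 0.790 and 0.621. In the domain of *Ube3a* and *Snrpn*, 8 of 16 genes were higher and 8 lower for Acute against Water, and 7 were higher and 9 lower for Chronic against Water. *Ube3a*, the ubiquitin ligase that *Snhg14* overlaps, was at -0.026 ± 0.036 and -0.051 ± 0.036. *Ndn* was at 0.16 ± 0.062 for Acute against Water, with an edgeR adjusted p of 0.462. Around *Peg13*, 4 of 5 genes were higher and 1 lower in both comparisons with Water, with *Trappc9* at 0.025 ± 0.032 for Acute and 0.051 ± 0.032 for Chronic.

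Of the genes tested in the domains, the second batch differed from the first for 3 of 11 in the *Dlk1*-*Dio3* domain, all higher, for 5 higher and 3 lower of 16 in that of *Ube3a* and *Snrpn*, and for 2 higher and 1 lower of 5 around *Peg13*, beside the 46.2% of all genes. *Snurf*, a reading frame upstream of *Snrpn*, was at 9.21 ± 1.12 CPM in the first batch (SD, n = 11) and 32.4 ± 3.30 in the second (n = 17). This was a log2 fold change of 1.81 ± 0.063 (SE, edgeR adjusted p = 2.12e-20), and the batches did not overlap. *Trappc9*, the host of *Peg13*, was higher in the second batch by 0.27 ± 0.027 on the log2 scale (edgeR adjusted p = 2.5e-09), while *Peg13* itself was at -0.038 ± 0.023. *Begain* and *Dync1h1* in the *Dlk1*-*Dio3* domain were both higher by 0.35, and *Ube3a* was lower by a log2 fold change of -0.14.

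Of the other imprinted genes, 24 of 36 tested were higher and 12 lower for Acute against Water, and 22 higher and 14 lower for Chronic against Water, with a median of 0.041 and 0.040. *Igf2r*, a receptor that clears growth factor, was at -0.18 ± 0.054 for Acute against Water (edgeR adjusted p = 0.384), and *Ppp1r9a*, a synaptic scaffold, at -0.18 ± 0.051 for Chronic against Water (edgeR adjusted p = 0.214). Of the other brain long non-coding RNAs, 19 of 36 were higher and 17 lower for Acute against Water (median 0.013), and 24 were higher and 12 lower for Chronic against Water (median 0.047). *Bc1*, a short neuronal RNA that represses translation, spanned 103 to 314 CPM among Water mice (median 209) and 76.7 to 823 CPM among Chronic mice (median 424), with a log2 fold change of 0.83 ± 0.22 (SE, edgeR adjusted p = 0.186) in the model that held batch. Its level spanned 76.7 to 223 CPM in the first batch and 162 to 823 CPM in the second, so that every Chronic mouse above 223 CPM was of the second batch. Within batches, *Bc1* for Chronic against Water was at 0.11 ± 0.32 in the first (edgeR adjusted p = 0.9999) and 1.15 ± 0.21 in the second (edgeR adjusted p = 0.0588). Of the 4 splicing factors reported to bind *Miat*, 1 was higher and 3 lower for Acute against Water, with *Sf1* at -0.079 ± 0.032 (edgeR adjusted p = 0.476).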

How the data were processed

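Amygdala RNA of 28 mice in 3 drinking groups and 2 batches was analysed. The authors deposited a table of estimated counts for each batch, as whole numbers per gene, made with Salmon 0.14.1 and tximport on GRCm38 after FastQC 0.11.8. The use of strand in counting is not given in the sources used here. The tables were joined on the 49477 gene identifiers they share, and a filter on a mean count of at least 10 left 16266 genes. Counts summed to 20004380 to 22569562 per mouse, and none of the 55 pairs of mice of the same group and batch agreed within sampling noise.

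Differences were tested with edgeR 4.0.16 (quasi-likelihood test, TMM scaling, batch and group as terms, R 4.3.3), with Benjamini-Hochberg adjustment over all genes and a threshold of 0.05. Mice were housed individually, each library is 1 mouse, and p-values measure the spread between mice. Single values were tested by 2-sided exact permutation of the groups within batches, on log2 CPM with a prior count of 2, without adjustment. *Rian* was tested in the first table alone. The fit was tested on simulated data. Alternatives used DESeq2 1.42.0, limma 3.58.1 (voom), ComBat-seq from sva 3.50.0, other scalings and filters, length and GC offsets, each batch alone, and each mouse left out. Leaving out each mouse for the permutation p-values and the differences within batches was added after the data were seen. Permutation and correlation used scipy 1.17.1 and statsmodels 0.14.6 in Python 3.11.15.

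The 8 genes, the domains and their neighbours may be named, with the 3 smallest p-values per comparison of other lists and the 3 genes most alike each member. The genes and lists were chosen with earlier results of these data known. Promoters and microRNAs are from RefSeq (GRCm38.p6).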

Additional observations from a re-analysis of the deposited data

Results flagged for a closer look

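In 23 checks of the highest or lowest mouse of a group, 2 stood apart by more than Dixon's critical value on log2 CPM with batch means removed, and chance flags about 1 in 20 such groups. *Peg13* in mouse Water 41 was the highest of the 10 Water mice, at 334 CPM, with a gap to the next mouse of 0.528 of the group's range on that scale (critical value 0.466). *Pantr1* in mouse Chronic 2 was the lowest of the 9 Chronic mice, at 7.38 CPM, with a gap of 0.511 of the range on the same scale (critical value 0.493).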

How the results depend on the processing

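None of the 7 genes listed in both tables was called in a comparison of drinking groups under any alternative. For the batches, upper quartile scaling called 1 (*Peg13*, log2 fold change -0.063, edgeR adjusted p = 0.0318), and leaving out mice gave 0 to 1, the 1 being *Pantr1* without Chronic 2 (0.17, edgeR adjusted p = 0.0412). Counts of genes called for Acute against Water were 1 with no filter, 2 by limma-voom, 9 by DESeq2, 30 by ComBat-seq and DESeq2, and 0 to 2 with a mouse left out (2 without Chronic 38). For Chronic against Water they were 38 by DESeq2, 88 by ComBat-seq and DESeq2, 0 in the first batch alone, 1 with the replicate block and offsets, and 2 to 6 with a mouse left out (6 without Water 3). For Chronic against Acute it was 1 with no filter, and 0 to 0 with a mouse left out. Between batches it was 2822 in Water mice alone and 7125 to 7644 with a mouse left out. By ComBat-seq and DESeq2, *Ppp1r9a* and *Bc1* were called for Chronic against Water (adjusted p = 0.0366 and 0.0242).

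Some directions turned. *Miat* between batches was -0.022 with upper quartile scaling, -0.0074 with a minimum mean of 100 counts and -0.13 in Water mice. *Peg13* for Chronic against Acute was 0.0048 by ComBat-seq and 0.031 in the second batch. In the first batch alone, *Mirg* was -0.030 and *Pantr1* -0.034 for Acute, *Miat* -0.0093, *Peg13* -0.012 and *Snrpn* -0.039 for Chronic against Water, and *Bc1* -0.00035 for Chronic against Acute (0.82 over both batches). *Snhg11* for Acute was 0.0088 in the second batch, and with length and GC offsets it was 0.0084 and *Meg3* 0.026. With a mouse left out, *Meg3* for Chronic against Water ran from -0.0033 (without Chronic 38) to 0.081, *Miat* between batches from -0.037 to 0.036, *Peg13* for Chronic against Acute from -0.015 to 0.013, and *Snhg11* between batches from -0.040 to 0.027. *Rian* ran from -0.0090 to 0.068 for Acute, from -0.0097 to 0.090 for Chronic against Water and from -0.037 to 0.063 for Chronic against Acute. The cause of these turns was not tested.

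The replicate numbers of the labels were tried as a replicate block, which called 0, 3 and 0 genes and changed no call of the 7. With the block and the offsets, *Meg3* was 0.022 and *Snhg11* 0.0096 for Acute against Water. The r of the deviations of same-numbered mice ran from -0.35 to 0.34 over 16 pairs, with 4 over 0.1. These 4 were Chronic 3 with Water 3 (0.23) and the pairs among the mice numbered 5 (0.15, 0.34 and 0.22). Whether same-numbered mice share more than a number was not tested.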

Other observations

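*Gm26945*, a transcript inside the span of *Rian* at chromosome 12 from 109640341 to 109642351, was listed in the first batch's table only, with a mean of 42.4 counts and a range from 24 to 64. Over the 11 mice of that batch, its r was 0.89 with *Meg3*, 0.84 with *Rian* and 0.83 with *Mirg* (permutation p = 0.00044, 0.00109 and 0.00142, rho = 0.85, 0.81 and 0.87), and 0.78, 0.61 and 0.72 without 2 mice. It was chosen after its values were seen.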
